A study of Populus tremula x Populus alba with 64 samples.

Results

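The early root response to a foliar spray of an auxin transport inhibitor was described from 5 of the 64 libraries of the series, the roots collected at 24 h from plants labelled AI (auxin inhibitor) and from their own controls. The members were the count libraries whose labels give inhibitor or inhibitor control, root and 24 h, and whose total was at least 1000000 counts. That left 2 of 3 AI libraries and all 3 control-AI libraries. All plants were 1 clone of a poplar hybrid, Populus tremula × Populus alba INRA 717-1B4, grown as leafy cuttings that had been rooted with a commercial rooting powder. AI plants were sprayed on their leaves with 100 µM NPA (naphthylphthalamic acid) prepared in KOH, and control-AI plants with the KOH solution alone. The labels do not say whether the replicates came from separate plants or pools, so that the p-values measure only the spread between these samples. Where the series is used for comparison, AI and control-AI roots at 11 d, AI and control-AI stems at 24 h, and roots at 24 h of AE plants (auxin enhancer, 3 µM NAA and 4.5 µM IBA) with control-AE roots are meant.

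Auxin is made mostly in young shoot organs and moves to the root through the vascular tissue and from cell to cell. PIN auxin efflux carriers set the direction of the cell-to-cell stream, and ABCB transporters and kinases such as PINOID act beside them. NPA blocks this polar transport by binding the efflux machinery. In the responding cell, the receptor TIR1 removes Aux/IAA repressors from auxin response factors, and GH3, SAUR and Aux/IAA genes are the classic early auxin-induced families. These roles are known mainly from Arabidopsis.

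The 5 libraries held between 9220875 and 11822681 counts. AI replicate 1 held 149955 counts and was left out by the depth rule. Counts are given as CPM, counts per 1000000 after TMM scaling of the 5 library totals. Root and green-tissue marker genes were read first. The 14 rows of green-tissue genes (photosystem, light-harvesting and RuBisCO small-chain products) summed to 39.4 to 89.6 per 1000000 counts in the 5 root libraries, with 2 of the 14 rows at 0 in each, against 1810 to 2340 in AI and control-AI stems at 24 h. AI replicate 2 had the highest of the root sums. The 9 root rows (mainly PIP and TIP aquaporins) summed to 3810 to 7530 per 1000000 counts in roots and to 2140 to 2610 in stems, so that both lists followed the labelled tissue. A list of 15 xylem rows had 1050 to 1340 in roots and 281 to 296 in stems.

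AI replicate 3 lay nearer to a control than to its fellow. Over the tested rows, the root mean square difference of log2 CPM between 2 libraries was 0.377 for AI replicate 3 and control-AI replicate 3, the smallest of the 10 pairs. It was 0.516 for the 2 AI libraries and 0.461 to 0.513 among the controls. AI replicate 2 differed from the 3 controls by 0.525, 0.583 and 0.529. AI replicate 3 was thus nearer to control-AI replicate 3, and by 0.462 to control-AI replicate 1, than to AI replicate 2, and the distance between the 2 AI libraries exceeded every distance among the controls. No pair of libraries agreed within sampling noise, since chi-square divided by its degrees of freedom was at least 4.37 in every pair.

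**Figure D1:**
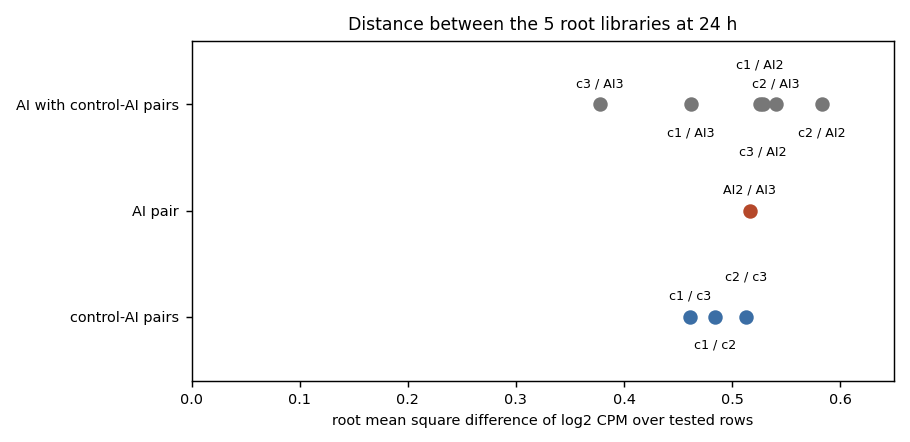
Root mean square difference of log2 CPM over the tested rows for each of the 10 pairs of the 5 root libraries at 24 h, by kind of pair; c1 to c3 are control-AI replicates 1 to 3, and AI2 and AI3 are AI replicates 2 and 3. The pair of AI replicate 3 and control-AI replicate 3 is at 0.377, and the pair of AI libraries is at 0.516.

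No row passed the test between AI and control-AI roots at 24 h. A row is 1 transcript model, or a gene without one. Of the 62007 rows in the files, 23021 rows of 22111 genes had enough counts to be tested. With edgeR's quasi-likelihood test and Benjamini-Hochberg adjustment at 0.05, 0 rows (0%) were called, and the smallest adjusted p was 0.707. At an unadjusted p under 0.05 there were 1612 rows (7.0%), of which 889 (3.86%) had higher and 723 (3.14%) lower values in AI roots. DESeq2, the tool of the study, called 0 rows as well, with 983 rows (4.27%) at an unadjusted p under 0.05, and limma voom with quality weights called 0 with 1588. Among mRNA rows 7.08% were at an unadjusted p under 0.05, against 6.24% of non-coding rows and 5.62% of rows without a transcript accession.

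Both AI libraries lay above all 3 control-AI libraries for 2881 rows (12.5%) and below them for 2778 rows (12.1%), so that the ranges did not overlap for 5659 rows (24.6%). The log2 fold change of AI against control-AI exceeded 1 in size for 463 rows (2.01%), 189 of them higher (0.821%) and 274 lower (1.19%). Of these 463 rows, 302 (65.2%) had ranges that did not overlap, and in 310 (67.0%) AI replicate 2 lay farther from the control mean than AI replicate 3 did. Over all tested rows AI replicate 2 was the farther one in 55.7%. Across rows, the log2 fold changes had their 5th percentile at -0.59, their 95th at 0.54 and their median at 0.0024. In bulk roots, fewer cells of a type and less RNA per cell cannot be told apart.

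The precision of these values depended on the expression level. The 95% interval of the log2 fold change lay within 1 of 0, that is below a doubling or halving, for 16063 rows (69.8%). For rows between 10 and 100 CPM it did so in 92.4% of 9561 rows, and above 100 CPM in 95.4% of 2387 rows. For rows between 1 and 10 CPM this share was 50.7% of 9725, and under 1 CPM 1.34% of 1348. For most moderately and highly expressed genes a doubling in root transcript level was thus outside the interval, while for genes under 1 CPM it was not detectable at this depth.

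**Figure D2:**
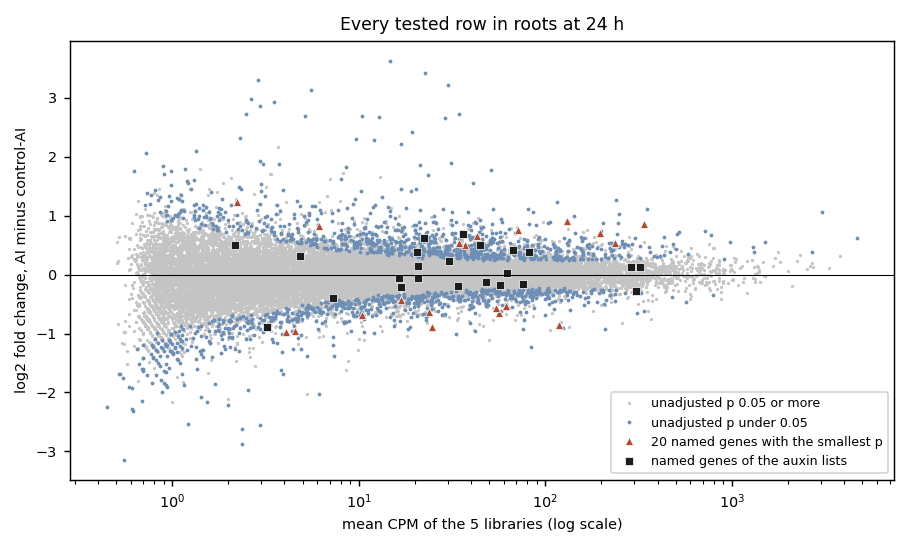
Log2 fold change of AI against control-AI roots at 24 h (y axis) against mean CPM of the 5 libraries (x axis, log scale) for the 23021 tested rows. Rows at an unadjusted p under 0.05 are blue, triangles mark the 20 named genes with the smallest p and squares the named genes of the auxin lists; no row passed the adjusted threshold.

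Product names were at hand for 1640 of the tested rows (7.12%), from the annotation column of the study's list of transcripts in 11-day roots, a list that was ordered by the response to AE. Of the named rows 196 (12%) were at an unadjusted p under 0.05, 8.96% with higher and 2.99% with lower values, more than the 7.0% of all rows, so the genes below are a selected part of the root transcriptome. The 10 named genes with the smallest unadjusted p in each direction are given next. None passed the test, and the adjusted p from edgeR was 0.707 for each of the 20. They were chosen by p, and that their ranges do not overlap follows largely from that choice.

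Among the named genes with higher values in AI roots, the smallest unadjusted p was that of an osmotin-like protein. The gene (7489269, on NC_037293.1 from 3944329 to 3945324), of a family tied to osmotic stress and pathogen defence, had 288 and 225 CPM in AI replicates 2 and 3 and 161, 133 and 179.5 CPM in control-AI replicates 1, 2 and 3. Its log2 fold change was 0.70 (standard error 0.16, unadjusted p = 0.00309). AI replicate 2 was the highest of the 5 libraries and control-AI replicate 2 the lowest.

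CP12 proteins are small plastid proteins that bind enzymes of the Calvin cycle. The CP12-3 gene 7494735 (on NC_037289.1 from 25751817 to 25752550) had 103 and 86.9 CPM in the AI libraries and 55.3, 44.03 and 68.03 CPM in the controls (log2 fold change 0.76, standard error 0.18). A second CP12-3 gene, 7471735, had 42.03 and 43.1 CPM against 27.2, 26.6 and 33.7 CPM (log2 fold change 0.54, standard error 0.14). The AI libraries of this second gene were almost level, and AI replicate 3 was the higher of the pair. A split of reads between the 2 like-named genes was not tested.

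The thioredoxin-like protein CXXS1 (7494320) had 63.6 and 47.2 CPM in AI and 33.6, 33.1 and 39.1 CPM in control-AI roots, with a log2 fold change of 0.65 (standard error 0.16). Histone H1 (18099218), the linker histone of chromatin, had 227 and 136 CPM against 81.5, 102 and 107 CPM (log2 fold change 0.91, standard error 0.22). A 21 kDa protein (7482991) had 568 and 356 CPM against 223, 248 and 294 CPM (log2 fold change 0.86, standard error 0.21). In the last 2 genes AI replicate 2 stood well above the other 4 libraries, and AI replicate 3 lay closer to the controls than to AI replicate 2.

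An ACC oxidase homolog (homolog 3, 7485152), named after the last enzyme of ethylene synthesis, had 49.01 and 41.4 CPM in AI roots and 30.3, 31.6 and 33.7 CPM in controls. The log2 fold change was 0.50, with the narrowest standard error of the 10, 0.12. A probable steroid-binding protein 3 (7458431) had 308 and 273 CPM against 209, 173 and 219 CPM (log2 fold change 0.54, standard error 0.13). In both genes the 5 libraries kept the same top pair, AI replicate 2 above AI replicate 3.

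Probable purine permease 4 (7491460) belongs to a family whose Arabidopsis members carry purines and some cytokinins. It had 9.27 and 7.27 CPM in AI and 4.71, 4.17 and 5.04 CPM in control-AI roots (log2 fold change 0.83, standard error 0.21). Protein FD (18099147), a bZIP factor that in Arabidopsis partners the flowering signal FT, had 3.999 and 2.84 CPM against 1.25, 1.25 and 1.79 CPM and the largest log2 fold change of the 10, 1.24 (standard error 0.32, unadjusted p = 0.00545). Both genes were expressed at a low level, and AI replicate 2 was the highest library in each.

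Among the named genes with lower values in AI roots, the calcium uniporter protein 2 (7473145, on NC_037291.1 from 2378394 to 2380953), part of the channel that lets calcium into mitochondria, had the smallest p of all named rows. It had 37.4 and 47.5 CPM in AI replicates 2 and 3 and 68.2, 65.2 and 65.8 CPM in the controls (log2 fold change -0.65, standard error 0.13, unadjusted p = 0.00142). The 3 controls were almost level, and AI replicate 2 was the lowest library.

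NADH-dependent glutamate synthase (7453835, on NC_037299.1 from 1268461 to 1280064, 22 exons) takes part in the assimilation of ammonium into glutamate. Its row had 14.4 and 18.2 CPM against 37.7, 24.8 and 27.9 CPM (log2 fold change -0.89, standard error 0.21). Its other tested transcript row gave -0.66 (standard error 0.32) with 2.04 and 2.57 CPM in AI and 4.42, 2.61 and 3.85 CPM in control-AI roots. In both rows the 2 AI libraries were below the 3 controls.

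The sugar transporter ERD6-like 18 (7473882) is of a family of sugar facilitators of the vacuole membrane. It had 53.01 and 44.2 CPM in AI and 68.4, 77.9 and 65.1 CPM in control-AI roots (log2 fold change -0.54, standard error 0.13). It was the only one of the 10 in which AI replicate 3 was the lower AI library. Glucomannan 4-beta-mannosyltransferase 9 (7468470), which makes the mannan backbone of the wall, had 72.2 and 88.7 CPM against 181, 152 and 102 CPM (log2 fold change -0.85, standard error 0.24). Its control-AI replicate 3 lay nearer to AI replicate 3 than to the other controls.

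A pair of neighbouring genes with the product name cytochrome P450 CYP72A219 had lower values together. Gene 7462323 (on NC_037295.1 from 14300574 to 14303342) had 35.9 and 47.9 CPM against 63.6, 65.6 and 57.9 CPM (log2 fold change -0.57, standard error 0.15), and gene 7462324 (from 14308464 to 14310385 of the same sequence) had 15.3 and 20.6 CPM against 31.7, 29.2 and 22.4 CPM (log2 fold change -0.63, standard error 0.20). In both, AI replicate 2 was the lowest library. A split of reads between these neighbours was not tested either.

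The kinase tricorner gene (18104890), named after a fly kinase, had 6.98 and 8.43 CPM in AI roots and 11.4, 12.4 and 13.1 CPM in controls (log2 fold change -0.68, standard error 0.17). A GTP-binding subunit of the peptide chain release factor, ERF3A-like (112323229), which acts in translation termination, had 13.6 and 14.3 CPM against 18.5, 19.1 and 18.97 CPM (log2 fold change -0.43, standard error 0.13). In both genes the controls were close together and AI replicate 2 was the lowest library.

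BNI1-related protein 1 (18094844) had 2.47 and 2.66 CPM in AI roots and 4.90, 6.26 and 4.10 CPM in controls (log2 fold change -0.98, standard error 0.27). Protein C2-DOMAIN ABA-RELATED 11 (7482632), of a family that in Arabidopsis brings abscisic acid receptors to membranes, had 2.13 and 3.64 CPM against 4.71, 6.89 and 5.30 CPM (log2 fold change -0.96, standard error 0.31). Both are genes of a low level, and AI replicate 2 was again the lowest library.

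AI replicate 2 lay farther from the control mean than AI replicate 3 in 18 of the 20 genes. Another set of control roots of the same time was available in the AE arm. When the 4 groups of roots at 24 h were scaled together, the range of the 3 control-AE libraries overlapped the range of the AI libraries for 13 of the 20 genes, 7 of the 10 higher and 6 of the 10 lower ones. The control-AE libraries of histone H1, for example, had 157 to 303 CPM, and those of the 21 kDa protein 390.5 to 874 CPM. The osmotin-like gene was not among the 13. Its control-AE libraries, at 286 to 513 CPM, lay above both AI libraries on this joint scale, whose AI values are not those given above. The control-AE range also lay beyond the AI values for the ACC oxidase homolog, ERD6-like 18, glucomannan 4-beta-mannosyltransferase 9 and C2-DOMAIN ABA-RELATED 11. It lay on the control-AI side of the AI values for CP12-3 gene 7471735 and the ERF3A-like gene. The share of all tested rows in which the control-AE range overlaps the AI range was not computed. Nothing particular to these 20 genes is therefore read from the count. The control-AE roots had not received NPA, and what set their values apart from those of control-AI roots was not tested.

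**Figure D3:**
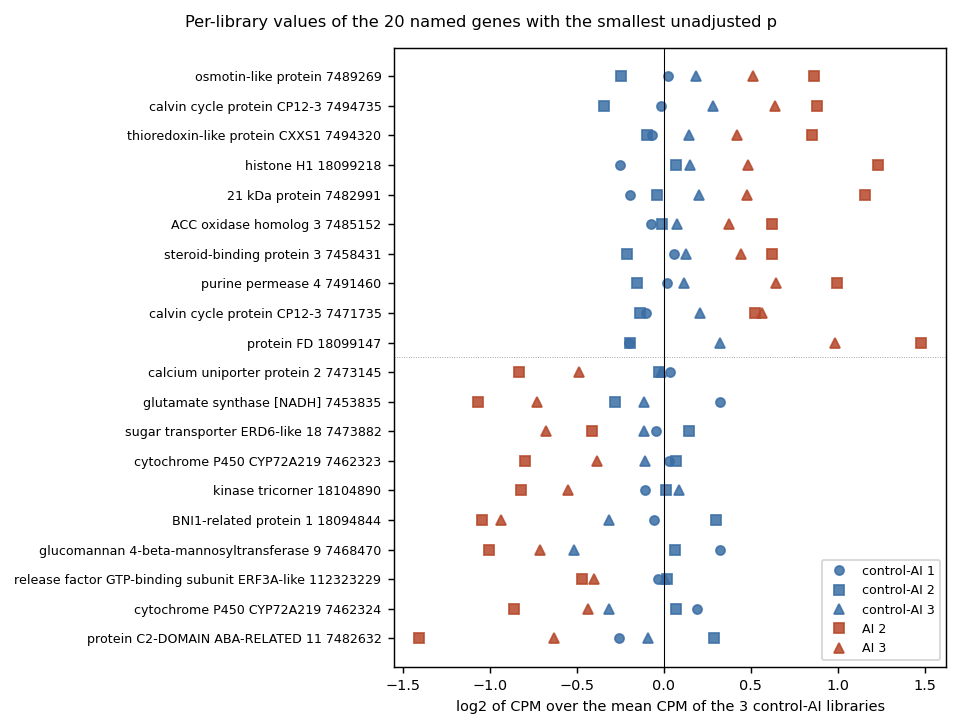
CPM of each library over the mean CPM of the 3 control-AI libraries (log2, x axis) for the 10 named genes with higher and the 10 with lower values in AI roots at 24 h that had the smallest unadjusted p. Blue symbols are control-AI and red symbols AI libraries; AI replicate 2 (red squares) is farther from 0 than AI replicate 3 (red triangles) in 18 of the 20 genes, and none passed the test.

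Most rows had no product name. Of these, the genes 7465622 and 7456792 had the smallest p among the higher and 7473613 and 7463842 among the lower values. Gene 7465622 had 23.1 and 21.6 CPM in AI and 13.9, 12.3 and 13.8 CPM in control-AI roots (log2 fold change 0.74, standard error 0.14). Gene 7473613 had 19.99 and 20.9 CPM against 32.4, 34.4 and 32.3 CPM (log2 fold change -0.69, standard error 0.12, unadjusted p = 0.000544), the smallest p of all rows tested, and its adjusted p from edgeR was 0.707.

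Leaving out AI replicate 3 gave 4 called rows, all of them higher in AI replicate 2 and all without a product name. These 4 genes were picked after their values were seen. Gene 18104186 had 93.8 and 5.77 CPM in AI replicates 2 and 3 and 6.06, 2.09 and 5.64 CPM in the controls, gene 7478680 had 50.6 and 14.99 CPM against 12.8, 10.5 and 12.6 CPM, and gene 7480386 had 111 and 44.3 CPM against 34.9, 35.9 and 37.1 CPM. The fourth, 18109924, had 143 counts in AI replicate 2, 7 in AI replicate 3 and 9, 4 and 7 in the controls. This row did not pass the count filter of the main comparison and was not tested there. It passed the filter when AI replicate 3 was left out. Each of the 4 genes was raised in 1 AI library, while the other AI library was in or near the control range. With AI replicate 2 alone the log2 fold changes were 4.33, 2.08, 1.63 and 4.25 in the same order (adjusted p = 0.0321 from edgeR for each). The same gene 18104186 had 4.59, 90.04 and 93.7 CPM in the 3 control-AE libraries and 3.74 to 164 CPM in AE libraries.

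Genes of auxin transport and response were read as 8 lists of product names, 30 tested rows of 29 genes in all. None was called by edgeR. Of the 30 rows, 3 were at an unadjusted p under 0.05, all with higher values in AI roots. These were root phototropism protein 3, SAUR71 and LBD41 gene 18099497. The share was 7.0% of all rows in both directions, and 8.96% higher and 2.99% lower among the named rows. The ranges did not overlap for 10 of the 30, against 24.6% of all rows. The median log2 fold change was 0.10, beside 0.0024 over all rows and 0.050 over the named rows. The values lay between -0.89 and 0.69, with 17 rows above and 13 below 0. All 5 LOB domain rows, described below, were among the 17. Leaving out single libraries gave medians from 0.052 (without AI replicate 2) to 0.16 (without AI replicate 3). The 95% interval lay within 1 of 0 for 21 of the 30 rows.

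The auxin efflux carriers, on which NPA acts, did not differ in transcript level beyond the spread between libraries. Auxin efflux carrier component 3 (7488396) had 36.7 and 25.99 CPM in AI and 40.1, 40.4 and 27.6 CPM in control-AI roots, with an interval of the log2 fold change from -0.71 to 0.31. Component 6 (7492445) had 22.7 and 17.9 CPM against 18.8, 24.2 and 20.8 CPM, with an interval from -0.46 to 0.34. WALLS ARE THIN 1 (7477644), an auxin exporter of the vacuole in Arabidopsis, had 343 and 334 CPM against 284, 332 and 309.9 CPM (interval -0.13 to 0.40). In both efflux carriers the groups overlapped.

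Of the partners of the carriers, ABC transporter B family member 11 (7455392) had 3.91 and 8.34 CPM in AI and 8.56, 7.30 and 8.38 CPM in control-AI roots, where AI replicate 2 was the lowest library and AI replicate 3 was in the control range. Root phototropism protein 3 (7472513), of the family of NPH3, which works with the blue-light receptors that redirect auxin flow, had 35.6 and 21.5 CPM against 17.1, 16.2 and 22.1 CPM. Its log2 fold change was 0.63 (standard error 0.24, unadjusted p = 0.0325), and AI replicate 3 was below control-AI replicate 3.

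In the response pathway, the repressor IAA16 (7474609), the most highly expressed Aux/IAA gene of the list, had 310.1 and 296 CPM against 268, 271 and 293 CPM (log2 fold change 0.13, interval -0.12 to 0.37). AUX28 (7454323) had 55.5 and 50.7 CPM against 60.6, 74.2 and 45.5 CPM, and IAA33 (7488970) 22.6 and 21.6 CPM against 23.8, 15.8 and 20.4 CPM. Auxin response factor 6 (7464667) had 71.9 and 54.4 CPM against 57.3, 68.02 and 59.9 CPM (log2 fold change 0.033, standard error 0.15). The AI and control values of AUX28, IAA33 and auxin response factor 6 were mixed.

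Auxin response factor 19 (18100300) had 5.53 and 5.41 CPM in AI and 3.85, 4.70 and 4.70 CPM in control-AI roots, and the receptor TIR1 (7494337) 2.89 and 2.40 CPM against 1.83, 1.98 and 1.79 CPM. In these rows the 2 AI libraries were the highest of the 5. The log2 fold changes were 0.31 (interval -0.18 to 0.80) and 0.50 (interval -0.14 to 1.15). The other tested transcript row of auxin response factor 19 went the other way, with 1.36 and 0.798 CPM in AI and 1.63, 1.88 and 1.97 CPM in control-AI roots (log2 fold change -0.75, standard error 0.36), so that the 2 rows of this gene gave no common direction.

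Of the GH3 enzymes, which conjugate auxin to amino acids, 2 genes share the name GH3.1. Gene 7469610 had 47.9 and 43.5 CPM against 45.7, 61.5 and 43.2 CPM, and gene 18101160 had 27.4 and 20.2 CPM against 20.6, 17.4 and 16.5 CPM. GH3.6 (7497419) had 12.8 and 17.8 CPM against 16.4, 19.3 and 17.6 CPM. The log2 fold changes were -0.13, 0.39 and -0.22, and in each gene the groups overlapped.

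The SAUR genes, small auxin-up RNAs, gave values on both sides of 0. SAUR71 (7492101) had 72.1 and 85.2 CPM in AI and 60.9, 48.8 and 66.9 CPM in control-AI roots (log2 fold change 0.42, standard error 0.16, unadjusted p = 0.0298). SAUR50 (18109456) had 2.38 and 1.86 CPM against 6.25, 3.13 and 2.48 CPM (log2 fold change -0.89, standard error 0.44). SAUR36 (7461707) had 10.9 and 21.1 CPM against 15.4, 20.97 and 13.8 CPM, with the AI libraries at the 2 ends of the range.

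Genes of auxin synthesis and release gave intervals that held 0. Tryptophan aminotransferase-related protein 4 (7468758), of the family that starts the main route of auxin synthesis, had 254 and 290.2 CPM against 357, 372 and 262 CPM. YUCCA10 (18111290), of the family of the second enzyme of that route, had 68.8 and 72.7 CPM against 96.2, 64.1 and 77.3 CPM. The hydrolase ILR1 (7492233), which frees auxin from its conjugates, had 35.6 and 31.6 CPM against 20.96, 36.5 and 28.7 CPM. The log2 fold changes were -0.28, -0.16 and 0.23.

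All 5 LOB domain (LBD) rows had positive log2 fold changes, with a median of 0.39 (0.13 without AI replicate 2, with 4 of 5 positive), and 1 of them was at an unadjusted p under 0.05. LBD41 gene 18099497 had 62.1 and 32.2 CPM in AI and 32.1, 25.1 and 30.3 CPM in control-AI roots (log2 fold change 0.69, standard error 0.26). The other LBD41 gene, 7477423, had 57.01 and 52.2 CPM against 42.4, 26.8 and 46.3 CPM, and LBD37 (7476419) 84.3 and 106 CPM against 77.4, 53.9 and 87.3 CPM. Some LBD proteins act in auxin-driven lateral root formation. In Arabidopsis, however, LBD41 is known as a hypoxia gene and LBD37 to LBD39 as nitrogen-response repressors, and no LBD gene of lateral root initiation was among the named rows tested.

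**Figure D4:**
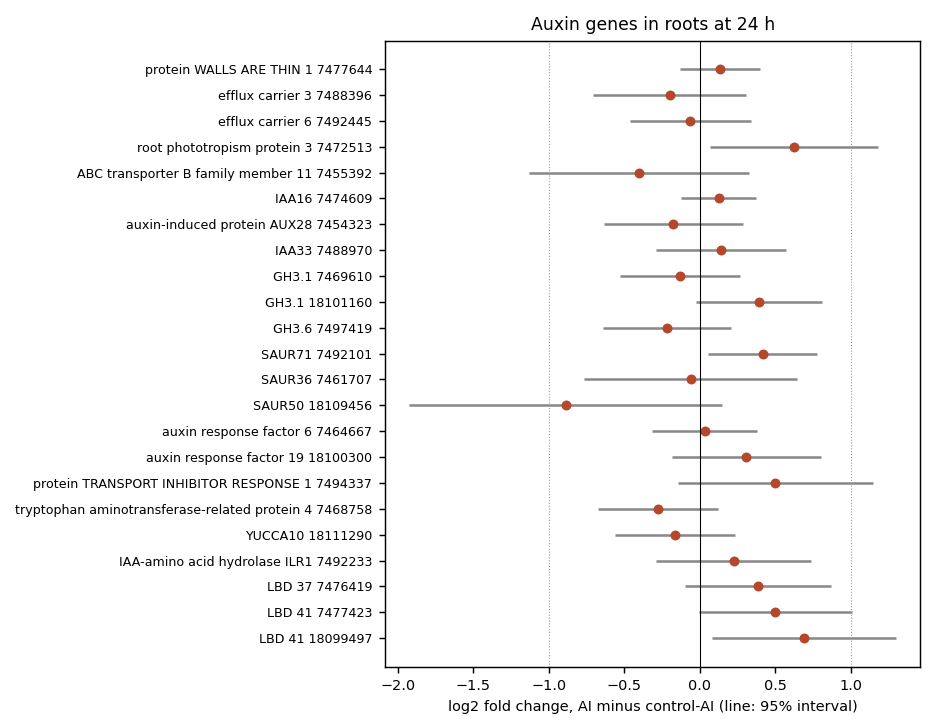
Log2 fold change of AI against control-AI roots at 24 h with its 95% interval for the named genes of the 8 auxin lists, up to 3 with the highest mean CPM in each list. Dotted lines mark 1 and -1; the values lie between -0.89 (SAUR50) and 0.69 (LBD41), and none passed the test.

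The other gene lists also held no called row. The genes named from them below, unless they are among the 20 above, were picked after the values were seen, most of them for a small unadjusted p. Counts at an unadjusted p under 0.05 stand beside 3.86% higher and 3.14% lower among all rows, and 8.96% higher and 2.99% lower among the named rows from which the lists were drawn; with lists this short they are descriptions and nothing particular to a list is read from them. In the lists of wall-loosening enzymes, 3 of 9 expansin and xyloglucan rows had higher and 1 lower values at an unadjusted p under 0.05 (named rows 8.96% and 2.99%). Putative expansin-A17 (7478823) had 30.03 and 30.2 CPM against 19.9, 24.3 and 22.6 CPM (log2 fold change 0.43, standard error 0.13). The lower one, a xyloglucan endotransglucosylase/hydrolase gene (7465538), had 4.17 and 3.37 CPM against 15.2, 9.39 and 4.96 CPM (log2 fold change -1.38, standard error 0.45), with control-AI replicate 1 the highest library. Of 17 pectin rows, 14 had positive log2 fold changes with a median of 0.14, and a probable polygalacturonase (7497216) had 408 and 155 CPM against 162, 168 and 131 CPM, where AI replicate 2 stood alone. Without AI replicate 2, only 5 of the 17 pectin rows were positive and their median was -0.16, while without AI replicate 3 it was 0.40.

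Among 31 secondary wall and lignin rows, 12 had positive and 19 negative log2 fold changes, with a median of -0.098 that ran from -0.18 (without control-AI replicate 3) to -0.038 (without AI replicate 2) when single libraries were left out. At an unadjusted p under 0.05, 1 was higher and 3 were lower. The higher one, laccase-17 (18095593), of the enzymes that couple lignin units, had the smallest p of the list, with 2.81 and 1.69 CPM in AI and 1.15, 1.25 and 1.11 CPM in control-AI roots (log2 fold change 0.94, standard error 0.35). Of the lower ones, cellulose synthase A catalytic subunit 1 (7459022), the most abundant of the 3, had 652 and 708 CPM against 964, 839 and 789.5 CPM (log2 fold change -0.35, standard error 0.14). Both AI libraries of this gene were below all controls. Subunit 3 (7482283) was also among the lower ones (log2 fold change -0.79, standard error 0.31). The list took cellulose synthase A genes by product name, and neither subunit is among those read as xylem markers. They are thus not read here as secondary wall genes. The summed level of 15 xylem marker rows was 1061 and 1214 CPM in AI and 1365, 1132 and 1162 CPM in control-AI roots, and the groups overlapped.

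Water channels and sugar carriers are of interest in a sink organ, and of 11 aquaporin rows 2 were at an unadjusted p under 0.05, both with higher values (named rows 8.96%). Aquaporin PIP2-8 (7494236) had 469 and 244 CPM in AI and 146, 164 and 214 CPM in control-AI roots (log2 fold change 1.03, standard error 0.27). The other, PIP1-4 (7487304), had 1.62 and 1.06 CPM against 0.769, 0.626 and 0.598 CPM (log2 fold change 1.01, standard error 0.40). In both the AI libraries were above the controls. Of the next rows by p, PIP2-4 (7491133), the most abundant of those named, had 799 and 1109 CPM against 736, 473 and 881 CPM, and TIP2-1 (7470570) 189 and 229.5 CPM against 133, 70.5 and 206 CPM. In the latter the controls alone ran from 70.5 to 206 CPM. The summed aquaporin level was 5089 and 7887 CPM in AI and 6467, 3704 and 6594 CPM in control-AI roots.

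Of 16 rows of sugar transport and sucrose metabolism, 3 had higher and 1 lower values at an unadjusted p under 0.05 (named rows 8.96% and 2.99%). The median log2 fold change of the 16 was 0.20, beside 0.050 over the named rows and 0.0024 over all rows. Without AI replicate 2 the median was 0.033, without control-AI replicate 2 0.078, and without control-AI replicate 3 0.28. The sucrose carrier SUC8 (7467435) had 71.7 and 44.3 CPM against 27.98, 25.2 and 40.0 CPM (log2 fold change 0.90, standard error 0.25). The inhibitor of fructosidase 1 (7475437), of a family that blocks invertases, had 38.8 and 24.2 CPM against 13.5, 8.87 and 21.8 CPM (log2 fold change 1.09, standard error 0.35). Sugar transport protein 14 (7467985) had 134 and 134 CPM against 71.1, 89.7 and 119 CPM. In these 3 genes control-AI replicate 3 was the highest control.

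A beta-amylase (18107014), of the enzymes that cut starch to maltose, had the largest log2 fold change of the 5 starch rows, 1.86 (standard error 0.63), from 61.9 and 14.2 CPM in AI and 10.2, 4.70 and 16.2 CPM in control-AI roots. AI replicate 2 stood alone, and AI replicate 3 was below control-AI replicate 3.

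Of the other hormone lists, jasmonate genes had mostly lower values: 6 of 8 rows were negative with a median log2 fold change of -0.31, and 2 were at an unadjusted p under 0.05. Leaving out single libraries gave medians from -0.54 to -0.26. Linoleate 13S-lipoxygenase 3-1 (7475684), an early enzyme of jasmonate synthesis, had 9.27 and 13.9 CPM against 27.1, 18.5 and 14.7 CPM (log2 fold change -0.79, standard error 0.29). TIFY 9 (7482810), of the JAZ repressor family, had 51.9 and 94.5 CPM against 127, 129 and 95.9 CPM (log2 fold change -0.68, standard error 0.26). In both genes AI replicate 3 was just under the lowest control. Of 7 abscisic acid rows, 5 were negative with a median of -0.14, which ran from -0.21 (without AI replicate 3) to -0.070 (without AI replicate 2). The median of 17 ethylene rows was 0.12, and 0.035 without AI replicate 3. That of 9 cytokinin rows was -0.034, with 3 rows positive, but 0.19 with 6 positive without AI replicate 2 and -0.32 without AI replicate 3. That of 5 gibberellin rows was -0.14, and 0.075 without control-AI replicate 3. The cytokinin and gibberellin lists thus took either sign with the libraries used.

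Ribosomal protein rows showed small positive values. Of 16 rows 13 were positive, with a median log2 fold change of 0.16, and 9 had both AI libraries above the 3 controls, where 12.5% of all rows did. The median ran from 0.12 without control-AI replicate 2 to 0.25 without control-AI replicate 1. One, the chloroplastic 30S ribosomal protein S5 (7456788), was at an unadjusted p under 0.05, with a log2 fold change of 0.39 (standard error 0.14). Of 18 heat shock and chaperone rows 2 were higher and 2 lower at an unadjusted p under 0.05, and of 32 detoxification rows 3 were higher and 0 lower, where 8.96% of the named rows were higher and 2.99% lower. Among 31 NAC and MYB rows, 6 were higher and 1 lower by the same measure, although 14 of the 31 were positive and 17 negative. Of the 6, NAC domain-containing protein 104 (7470532), a xylem-associated factor, had 5.79 and 5.23 CPM against 1.83, 1.98 and 3.42 CPM (log2 fold change 1.18, standard error 0.31).

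Among the cell cycle rows, 3 of 8 were higher at an unadjusted p under 0.05 (8.96% of named rows, 3.86% of all rows), the histone H1 named above and 2 genes with the name SMR6, of a family that inhibits cyclin-dependent kinases. The first SMR6 gene (7460759) had 59.3 and 44.0 CPM against 30.0, 30.7 and 38.5 CPM (log2 fold change 0.64, standard error 0.17). The replication factor MCM7 (7491255) had 45.4 and 45.1 CPM against 49.4, 61.7 and 51.6 CPM (log2 fold change -0.26, standard error 0.13), below the controls in both AI libraries.

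Green-tissue rows that could be tested had 7 positive and 5 negative log2 fold changes, with a median of 0.079. The tally rested on single libraries: without AI replicate 2 it was 3 positive and 8 negative with a median of -0.51, and without AI replicate 3 9 and 3 with a median of 0.48. Without control-AI replicate 2 or 3 the median was -0.14 or -0.093. Oxygen-evolving enhancer protein 2 (7464819) had 37.8 and 16.7 CPM against 9.999, 6.26 and 13.4 CPM (log2 fold change 1.45, standard error 0.39). The summed level of the 12 rows was 90.1 and 45.9 CPM in AI and 65.2, 37.9 and 44.4 CPM in control-AI roots. AI replicate 2 was again the highest library. The part of shoot tissue in the values of plastid genes such as CP12-3 was not tested.

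The study names polygalacturonase, 3 AAA-ATPases and a beta-amylase as higher under AE in 11-day roots, and reports no significantly changed gene under AI. In AI and control-AI roots at 24 h, polygalacturonase (7459926) had 2.38 and 3.02 CPM against 2.69, 2.19 and 2.91 CPM. Beta-amylase 1 (7494763) had 25.8 and 17.7 CPM against 36.6, 30.1 and 18.03 CPM, and in both genes the groups overlapped. The 3 AAA-ATPase genes 18097389, 112325816 and 18109209 had log2 fold changes of -0.13, 0.19 and -0.25 (standard errors 0.25, 0.38 and 0.33), also with overlapping groups.

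Whether the early root effect differed from the later one, from that in stems or from that of AE was tested by interaction terms in edgeR. For 24 h minus 11 d in roots (8 libraries at 11 d), 0 of 24610 rows (0%) were called, with 1106 (4.49%) at an unadjusted p under 0.05 and 0 called and 863 (3.51%) by DESeq2. For roots minus stems at 24 h (4 stem libraries), 0 of 24594 rows (0%) were called, with 722 (2.94%) at an unadjusted p under 0.05 and 0 called and 376 (1.53%) by DESeq2. Without AI replicate 3, edgeR called 1 row here, gene 18109924. For AI minus AE in roots at 24 h (6 libraries of the AE arm), 0 of 23964 rows (0%) were called, with 1076 (4.49%) at an unadjusted p under 0.05 and 0 called and 895 (3.73%) by DESeq2. The comparisons share no library with the AI roots at 24 h and their controls, and each of them alone also had 0 rows called by edgeR, with 987 rows (11 d), 511 rows (stems) and 1089 rows (AE) at an unadjusted p under 0.05.

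Over 11948 rows of at least 10 CPM, the log2 fold changes of AI roots at 24 h correlated with those at 11 d with Pearson's r = 0.235 (Spearman's rho 0.161), with those in stems with r = 0.174 (rho 0.234), and with those of AE roots with r = -0.125 (rho -0.0859). These are descriptions across genes, which are not independent replicates, and all points of a comparison share its libraries.

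The 20 named genes were then set beside these other comparisons. Of the 10 with higher values, 9 had positive log2 fold changes under AI in roots at 11 d, 8 in stems at 24 h and 3 under AE in roots at 24 h. Of the 10 with lower values, 6 were negative at 11 d, 6 in stems and 2 under AE. The same tallies over all rows were not made, so nothing particular to the 20 genes is read from these. The sizes were small at the later time: 0.25 (standard error 0.21) for the osmotin-like gene, 0.20 (standard error 0.18) for histone H1 and 0.015 (standard error 0.13) for the calcium uniporter. In stems, the CP12-3 genes 7494735 and 7471735 had 0.44 (standard error 0.23) and 0.58 (standard error 0.23).

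Under AE, the pair of CYP72A219 genes had log2 fold changes of 0.81 (standard error 0.26) and 0.75 (standard error 0.27), opposite in sign to those under AI. The difference between AI and AE was -1.39 for each (standard errors 0.39 and 0.40), and the adjusted p from edgeR was 0.970, so that it did not pass. Purine permease 4 was positive under both sprays, with 1.07 (standard error 0.35) under AE.

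**Figure D5:**
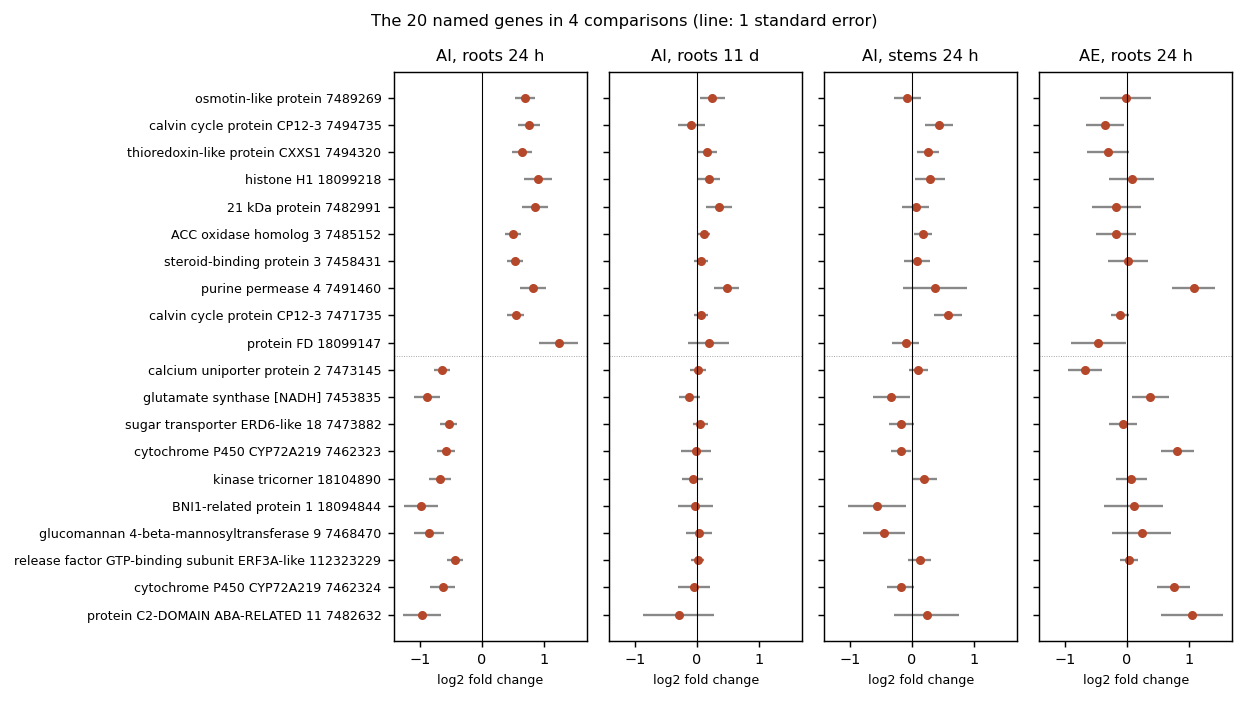
Log2 fold change of treated against control samples, with a line of 1 standard error on each side, for the 20 named genes in AI roots at 24 h (which chose them), AI roots at 11 d, AI stems at 24 h and AE roots at 24 h. Of the 10 genes with higher values 9, 8 and 3 are positive in the other 3 comparisons, and of the 10 with lower values 6, 6 and 2 are negative. The same tallies over all rows were not made.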

How the data were processed

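Roots of 1 poplar clone were collected at 24 h after a foliar spray, and polyadenylated RNA was sequenced. Per the paper's methods and the labels, the authors trimmed the reads and aligned them to the genome of Populus trichocarpa, and the submitters' processing notes name FastQC, STAR, featureCounts and Subread without versions. The deposited values are whole-number counts per row, without normalization, and the files give RefSeq sequence names and coordinates. The members, named genes and gene lists were chosen with earlier results of these data known, and lists are patterns on product names.

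Rows were kept by filterByExpr (count minimum 10, total minimum 15), scaled by TMM and tested with edgeR 4.0.16 (glmQLFit and glmQLFTest, two-sided, Benjamini-Hochberg over all rows at 0.05) in R 4.3.3, with AI replicates 2 and 3 against control-AI replicates 1, 2 and 3. The differences between comparisons were interaction terms of the same test. Intervals are 95% intervals from the standard error and the test's degrees of freedom. Named genes had a product name and a mean of at least 1 CPM: the 10 with the smallest unadjusted p in each direction (none being called), the 3 with the highest mean CPM in each auxin list, and the genes the study names. Alternatives were median-of-ratios scaling, no filter, DESeq2 1.42.0, limma 3.58.1 (voom with quality weights), all libraries, a replicate block, a joint fit of the roots at 24 h, sums per gene, and leaving out each library. The fits were tested on simulated data. Python 3.11.15, pandas 2.3.3 and matplotlib 3.10.9 were used for the rest. A library needed 1000000 counts, which left out AI replicate 1 here.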

Additional observations from a re-analysis of the deposited data

Results flagged for a closer look

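AI replicate 1 of the roots at 24 h, the library of 149955 counts that entered only the alternative with all libraries, differed from the control-AI libraries in what its reads fell on. Counts on the chloroplast sequence made up 0.173% of its total (Wilson 95% interval 0.154 to 0.196%), against 0.00176 to 0.00232% in the 3 control-AI libraries. Rows of the large-subunit ribosomal RNA took 9.13% (8.98 to 9.28%), against 0.0461 to 0.0724%. RuBisCO small chain, the nuclear-encoded subunit of the carbon-fixing enzyme of green tissue, took 0.446% (0.414 to 0.481%), against 0.000553 to 0.00159%. In the 2 AI libraries that were used these shares were 0.00316 and 0.0026%, 0.0726 and 0.0642%, and 0.00127 and 0.00063%, far below those of AI replicate 1. Other libraries of low depth in the series also had high shares: across the 13 other libraries under 1000000 counts, 10 of stems and 3 of roots,, the shares ran from 0.0378 to 0.162% for the chloroplast sequence, from 1.52 to 33.3% for ribosomal RNA and from 0.0457 to 0.145% for RuBisCO small chain. The intervals cover counting error only, and the source of these reads was not tested.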

How the results depend on the processing

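No row was called between AI and control-AI roots under any alternative other than leaving out AI replicate 3, and none in the differences from 11 d and from AE under any alternative run. Leaving out an AI library leaves 1, whose spread is then assumed to be that of the controls. Leaving out single libraries gave 0 to 4 called rows for AI against control-AI and 0 to 1 for roots minus stems, in both cases the highest number without AI replicate 3. The number of rows at an unadjusted p under 0.05 moved from 618 without AI replicate 2 to 2234 without AI replicate 3, beside 1612 in the main comparison, 738 with AI replicate 1 included and 979 in the joint fit. With the replicate block, where AI and control-AI share only the numbers 2 and 3, 0 rows were called and 1301 were at an unadjusted p under 0.05. The correlation of deviations was 0.114 and 0.188 for same-numbered libraries. The deviations of the 2 AI libraries mirror each other, so the crossed values, -0.188 and -0.114, are those values with the sign turned. AI replicate 2 with control-AI replicate 1 gave 0.073. With 2 pairs, these values do not show that the numbers pair the samples.

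Of the 48 named genes, 13 changed the sign of their log2 fold change under some alternative, all of them small values that had not passed. Under the replicate block it was -0.030 for auxin response factor 6 and 0.0051 for YUCCA10, and with AI replicate 1 included it was 0.18 for auxin efflux carrier component 3. When single libraries were left out, it ran from -0.48 to 0.027 for efflux carrier component 3, from -0.26 to 0.097 for component 6, from -1.05 to 0.029 for ABC transporter B family member 11, from -0.34 to 0.0024 for AUX28, from -0.0025 to 0.28 for IAA33, from -0.23 to 0.040 for GH3.1 (7469610), from -0.61 to 0.33 for SAUR36 and from -0.20 to 0.22 for auxin response factor 6. It ran from -0.13 to 0.19 for polygalacturonase (7459926) and from -0.59 to 0.20, -0.66 to 0.71 and -1.06 to 0.26 for the AAA-ATPase genes 18097389, 112325816 and 18109209. The cause was not tested. The other 605 values of named genes kept their sign and stayed short of the threshold, beside the 19 that turned. The 2 AI libraries, of which replicate 3 lay nearest to a control, and the low counts of rows under 10 CPM limit what could be detected.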
